A study of Homo sapiens with 18 samples.

Results

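The nuclear-encoded genes of the mitochondrial respiratory chain were followed in human pluripotent stem cells (PSCs) that were wild-type (WT) or knocked out for PCGF6 (PCGF6-KO). They were taken as the rows of the gene count table whose symbols begin with NDUFA, NDUFB, NDUFC, NDUFS or NDUFV and a number, are SDHA to SDHD, or begin with UQCR, COX4 to COX8 or ATP5, without pseudogene and hyphenated names. This rule gave 88 of 57133 genes, with 38 in complex I, 4 in complex II, 9 in complex III, 17 in complex IV and 20 in complex V. PCGF6 is the subunit that defines the polycomb repressive complex PRC1.6, and the study asked what its loss does to human PSCs. RNA-seq was performed on 3 groups of cells that are labelled iPSC, the maintenance culture being mTeSR1 medium on Matrigel. The WT group was PGP1, an established human induced PSC line, with 2 libraries. PCGF6-KO clone 1 (KO1) and PCGF6-KO clone 2 (KO2) were made from it with Cas9 and a pair of gRNAs against PCGF6, and each had 2 libraries. Each clone was 1 line, and nothing in the labels says whether libraries of a group came from separate cultures. The p-values by clone thus measure the spread between libraries and not between independent knockouts. Those of PCGF6-KO against WT pool both clones in 1 group. Their spread also holds the difference between the 2 clones, but the libraries are still counted as if independent.

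The respiratory chain passes electrons from NADH through complex I (NADH dehydrogenase), or from succinate through complex II (succinate dehydrogenase), to ubiquinone, then through complex III (the cytochrome bc1 complex) and cytochrome c to complex IV (cytochrome c oxidase), which reduces oxygen. Complexes I, III and IV pump protons, and complex V (ATP synthase) uses the gradient to make ATP. Most subunits are encoded in the nucleus and a few in mitochondrial DNA. PSCs are known to rely heavily on glycolysis and to raise oxidative metabolism as they differentiate.

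The libraries held between 15877396 and 18918609 counts. PCGF6, of which the deletions remove only a part while the counts cover the whole gene, had 268 and 300 (WT), 99 and 103 (KO1) and 187 and 159 counts (KO2), with a log2 fold change of -1.15 (SE 0.27, adjusted p = 0.00914) in PCGF6-KO against WT by the quasi-likelihood test of edgeR (Benjamini-Hochberg adjusted over all genes tested). All 8 pluripotency markers examined were detected in every group, with a summed level of 6643 to 6882 CPM (counts scaled to library size with TMM) in WT, 6861 to 7016 in clone 1 and 6329 to 6554 in clone 2, and 2 of them rose and 3 fell in PCGF6-KO. All 7 mesendoderm markers tested rose, from a summed 4.08 to 5.04 CPM in WT to 657 to 664 in clone 1 and 856 to 859.5 in clone 2, and MESP1, SOX17 and HAND1 were at 0 in WT. Of the 6 fibroblast markers, 5 rose and 1 fell, with a summed 832 to 844 CPM in WT, 1705 to 1732 in clone 1 and 1927 to 2012 in clone 2, and LUM and DCN were at 0 in WT. Of the 4 neuroectoderm markers tested, 2 rose and 1 fell. The list had a summed 349 to 395 CPM in WT, 625 to 702 in clone 1 and 657 to 742 in clone 2, and SOX1 was at 0 in clone 2. The PCGF6-KO libraries thus held mesendoderm transcripts that were near 0 in WT beside the pluripotency markers, and by these markers the label of an undifferentiated PSC was not met in full. The part of these markers in the values below was not tested, and in bulk RNA fewer cells of a type and less RNA per cell cannot be told apart.

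The respiratory chain genes were among the well expressed genes of these cells. In WT they took 0.576 and 0.562% of all counts, or 0.569 ± 0.00988% (SD, n = 2). In the PCGF6-KO libraries their share was 0.524 and 0.513% in clone 1 and 0.520 and 0.491% in clone 2, so all 4 lay below both WT libraries. This share weighs the most abundant genes most and is a description with no test. The median log2 deviation of the tested members from the WT mean was 0.012 and -0.012 (WT), -0.074 and -0.11 (KO1) and 0.018 and -0.096 (KO2). By this median, clone 2 replicate 1 did not lie below WT. In the plot of count shares, complex V held the largest part in every library, between 0.199 and 0.237%, followed by complex I with 0.131 to 0.157%.

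**Figure D1:**
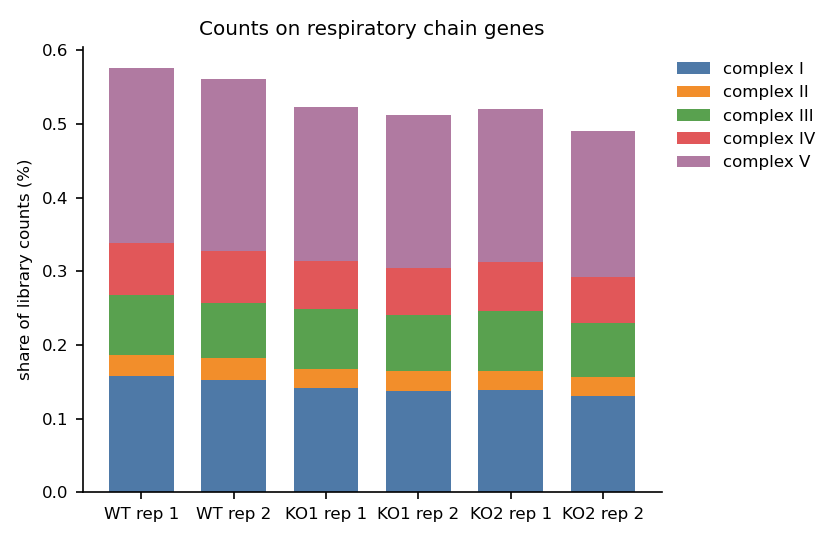
Share of all gene counts, in percent, on respiratory chain genes in each of the 6 libraries, stacked by complex. The WT bars reach 0.576 and 0.562%, and the 4 PCGF6-KO bars end between 0.491 and 0.524%.

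Levels per length of the tested members ranged from 0.358 to 329 in WT. As counts scaled to library size and gene length (RPKM; mean ± SD of 2 libraries), NDUFS5, an accessory subunit of complex I, stood highest at 329 ± 3.43, beside ATP5F1B, the catalytic beta subunit of ATP synthase, at 324 ± 2.42. The order of these 2 genes turned with the exon lengths of GENCODE 44, with ATP5F1B at 336 ± 2.51 and NDUFS5 at 329 ± 3.43. The highest in complex III was UQCRH, the acidic hinge protein, at 87.2 ± 10.1, and in complex IV COX5A, an accessory subunit, at 69.1 ± 3.39. These 4 genes also stood highest in their complexes with the exon lengths of GENCODE 44, an alternative added after the data were seen. In complex II the order turned with the length. SDHB, the iron-sulfur subunit, was highest at 24.4 ± 0.528 and SDHC lowest at 7.50 ± 0.179 with the deposited lengths, where SDHC is given 14160 bases. GENCODE 44 has 1902 exon bases for SDHC, with which SDHC stood at 55.9 ± 1.33 and SDHB at 24.6 ± 0.531. Both lengths were more than 1.5 times apart for 14 of the 81 tested members. The median over tested members in WT was 11.0 in complex I, 11.99 in complex II, 24.2 in complex III, 24.5 in complex IV and 21.7 RPKM in complex V. With the exon lengths the medians were 8.4, 19.5, 27.5, 24.7 and 27.7 in the same order. Complex V thus stood below complexes III and IV with the deposited lengths only.

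Some of the low gene values stood beside features of the annotation, but not all did. NDUFV2, a core subunit that carries an iron-sulfur cluster, was listed at only 0.368 ± 0.136 RPKM in WT, with between 5 and 24 counts per library, and 55.1% of the counts on it and its single pseudogene row NDUFV2P1 were on the pseudogene. NDUFA7 had between 6 and 12 counts, and 32.5% of its exon bases in GENCODE 44 also belong to another gene, among them the ribosomal protein gene RPS28. ATP5ME, at 4.59 RPKM in WT, shares 61.3% of its exon bases with MYL5, and NDUFB8, at 1.79 RPKM, shares 48.5% with HIF1AN and others. Low levels and shared bases did not always go together. NDUFA9, at 0.473 RPKM in WT, shares 10.6% of its exon bases, and COX8A, at 47.4 RPKM, shares 35.4%. Over all members, 48 share exon bases with another gene, but the 159 pseudogene rows together held only 2650 counts against 554037 on the members (0.476%). The strand setting and the treatment of reads in shared exons are not given in the sources used here, so the levels of these genes are uncertain, and the part of the shared bases in them was not tested.

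Few of these genes differed much between PCGF6-KO and WT cells. Of the 88 genes, 81 passed the filter on low counts, and 21 of them passed the quasi-likelihood test of edgeR (Benjamini-Hochberg adjusted over all genes tested) at an adjusted p under 0.05 in PCGF6-KO against WT, with 4 higher and 17 lower. Among all 17672 genes tested, 37.1% passed, with 20.5% higher and 16.6% lower, so that 25.9% of the tested members stood below the share over all genes, with 4.94% higher and 21.0% lower. With the study's cut-off, which also asks for an absolute log2 fold change over 0.6, 1 member was left, UQCRH, against 23.6% of all genes. The cut-off left 0 members in KO1 against WT (24.8% of all genes) and 3 in KO2 against WT (29.4%), which were UQCRH and UQCRHL, higher, and COX6B2, lower. The members' log2 fold changes had a median of -0.068 against 0.0037 for all genes. Their SD was 0.293 against 1.34 over all genes. It was 0.976 over genes above a floor at the low end of the members' abundance, with no upper limit. An absolute log2 fold change under 0.3 was found for 61 of the 81 members, or 75.3%, and for 47.9% of all genes.

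**Figure D2:**
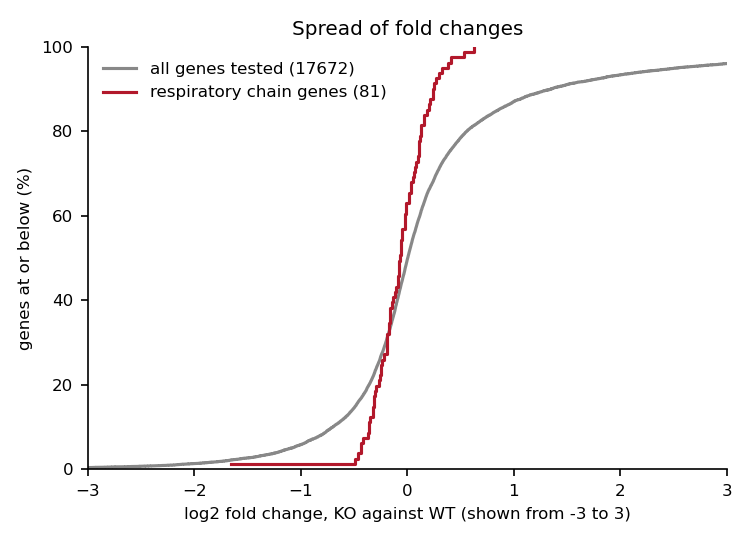
Cumulative share of genes, in percent, by log2 fold change in PCGF6-KO (n = 4) against WT (n = 2), for the 81 tested respiratory chain genes and for all 17672 genes tested. The curve of the respiratory chain genes is the steeper one, with an SD of 0.293 against 1.34.

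In the levels themselves, the 4 PCGF6-KO libraries all lay below both WT libraries for 27 members (33.3%, against 27.6% of all genes) and all above them for 16 (19.8%, against 29.5%). The groups overlapped for the other 38. Taken apart, clone 1 differed from WT for 24 members, with 6 higher and 18 lower, where 45.3% of all genes passed (24.1% higher and 21.1% lower). Clone 2 differed from WT for 31, with 10 higher and 21 lower, where 50.4% of all genes passed (26.2% higher and 24.2% lower). Both clones were higher than WT for 5 members (6.17%) and lower for 17 (21.0%), against 19.9 and 16.3% of all genes. For 0 members did they pass in opposite directions, a count for which the share over all genes was not taken. Both clones were compared with the same WT libraries. The median log2 fold change was -0.10 in clone 1 and -0.071 in clone 2. The WT group set the limit of these calls: without WT replicate 1 only 7 members passed in PCGF6-KO against WT, and without WT replicate 2 only 8. The share over all genes fell as well, to 20.9 and 20.3%, against 8.54 and 9.76% of the members tested in these fits. UQCRH, NDUFV3, NDUFA5, COX7C and ATP5F1A were among the 6 that passed in both cases.

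**Figure D3:**
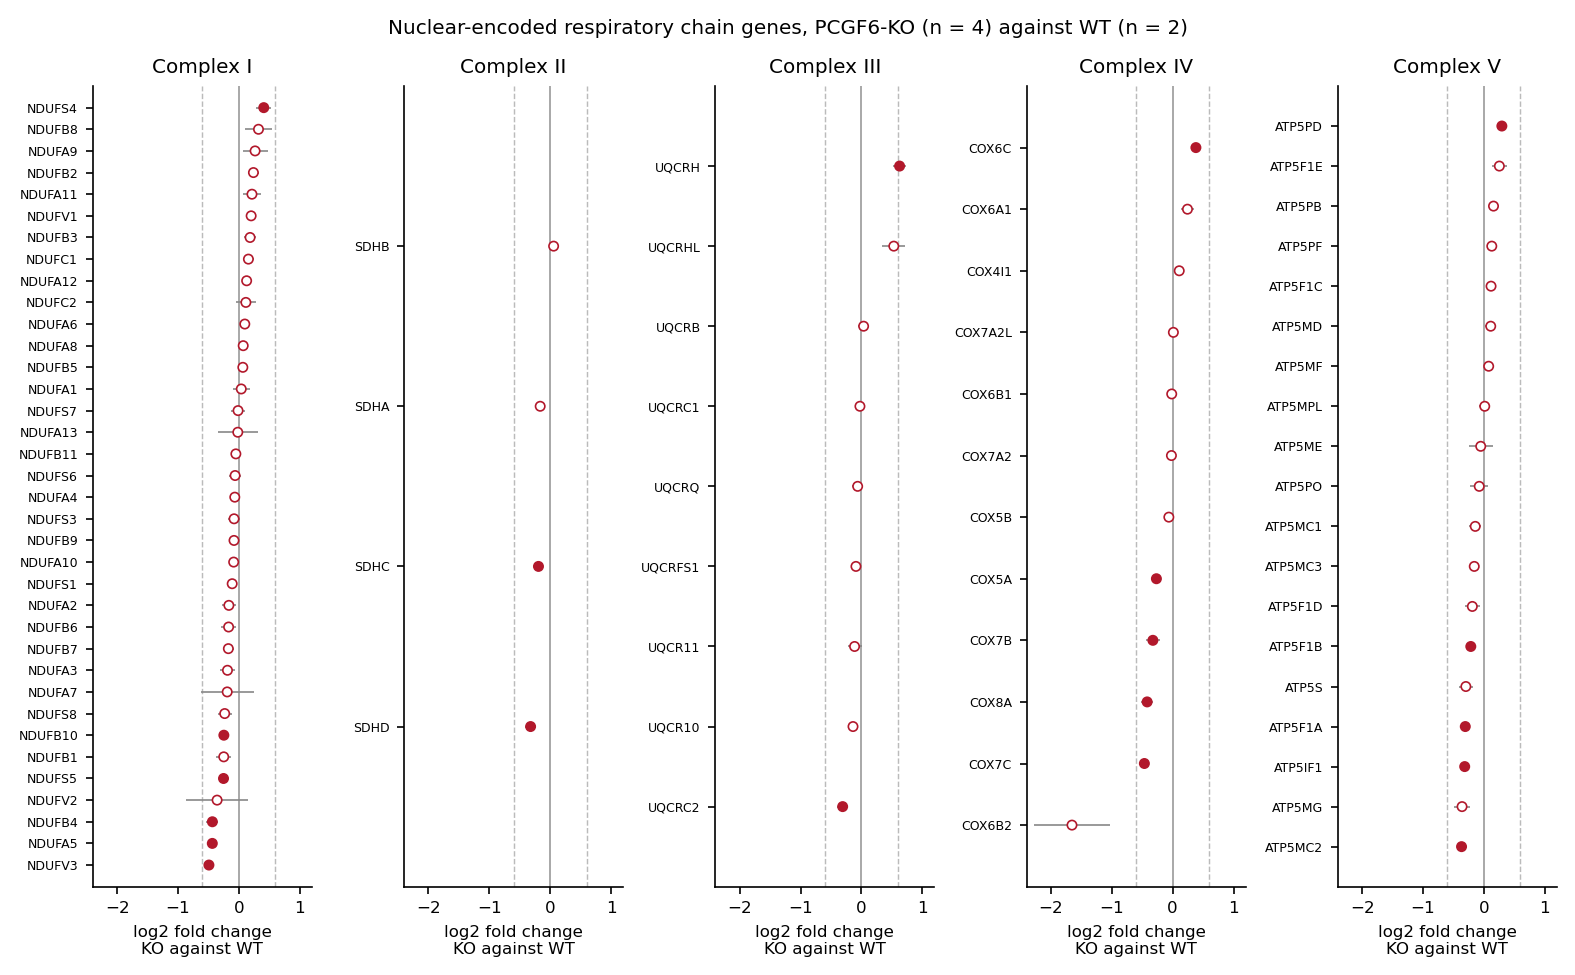
Log2 fold change in PCGF6-KO (n = 4) against WT (n = 2) for the tested respiratory chain genes but 1, by complex, with bars for the standard error and dashed lines at -0.6 and 0.6. Filled points passed edgeR's test at an adjusted p under 0.05, and among them UQCRH alone lies outside the dashed lines, at 0.63.

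The promoter sequences of some of these genes show letters known from the control of the respiratory chain and from PRC1.6. NRF1 and the ETS factor GABP (subunit GABPA) are the classical activators of nuclear respiratory chain genes, and PRC1.6 holds E2F6 and the E-box binding pair MGA and MAX. RefSeq windows of 250 bases before the first start listed (GRCh38.p14) were found for 69 of the 88 genes and searched on both strands. The NRF1 core TGCGCA stood in 17 of them (24.6%), against 7.05% of 27305 promoters and 10.8% of the 11936 promoters of tested genes. The core is a palindrome and reads alike on both strands. The ETS letters CCGGAAG also stood in 17 (24.6%), against 8.82 and 14.5%. The E2F6 letters GCGGGAA were in 9 (13.0%, against 5.59 and 8.54%), the E-box CACGTG in 6 (8.70%, against 6.49 and 8.55%), and the YY1 letters AAGATGGC in 1. These are descriptions of letters and say nothing of binding. Shown here, 5′ to 3′ on the gene's strand, are the stretches of 5 windows without an exon of GENCODE 44, with the matched letters in capitals. They are those of 3 genes that rose (UQCRH, ATP5PD and NDUFS4), of COX8A, which fell, and of SDHB, which did not pass the test and carries both the NRF1 and the ETS letters.
UQCRH: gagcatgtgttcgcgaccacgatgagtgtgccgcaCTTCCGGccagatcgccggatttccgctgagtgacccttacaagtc
ATP5PD: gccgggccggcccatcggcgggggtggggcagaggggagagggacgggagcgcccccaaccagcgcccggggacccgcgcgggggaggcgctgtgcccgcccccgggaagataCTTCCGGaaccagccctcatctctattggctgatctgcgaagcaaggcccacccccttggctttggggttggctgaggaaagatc
NDUFS4: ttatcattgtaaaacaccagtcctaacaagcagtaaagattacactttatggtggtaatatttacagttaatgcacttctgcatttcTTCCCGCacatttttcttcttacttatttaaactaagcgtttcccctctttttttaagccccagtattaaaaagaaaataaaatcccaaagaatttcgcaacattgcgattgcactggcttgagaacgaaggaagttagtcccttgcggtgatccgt
COX8A: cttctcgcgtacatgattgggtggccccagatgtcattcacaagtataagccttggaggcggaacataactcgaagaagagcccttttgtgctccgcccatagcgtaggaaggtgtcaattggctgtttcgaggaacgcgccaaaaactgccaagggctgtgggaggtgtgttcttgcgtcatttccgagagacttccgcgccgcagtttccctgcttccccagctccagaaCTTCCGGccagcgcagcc
SDHB: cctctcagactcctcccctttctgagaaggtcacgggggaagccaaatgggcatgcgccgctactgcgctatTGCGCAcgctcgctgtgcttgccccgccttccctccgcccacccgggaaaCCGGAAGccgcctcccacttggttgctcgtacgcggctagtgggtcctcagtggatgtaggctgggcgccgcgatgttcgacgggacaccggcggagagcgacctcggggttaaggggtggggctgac
The stretches lie at chr1:46303617-46303697 (plus strand), chr17:75046986-75047183 (minus strand), chr5:53560389-53560632 (plus strand), chr11:63974370-63974619 (plus strand) and chr1:17054033-17054282 (minus strand). The capitals mark the ETS letters in UQCRH, ATP5PD and COX8A, the E2F6 letters in NDUFS4, and the NRF1 core followed by the ETS letters in SDHB. Of the genes with a window that passed the test in PCGF6-KO against WT, ETS letters stood in 2 of 3 that rose and 2 of 13 that fell, and the NRF1 core in 0 of 3 and 2 of 13. The E2F6 letters stood in 1 of 3 that rose and in 3 of 13 that fell, ATP5F1A, ATP5MC2 and COX7B, and the E-box in 0 of either.

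Complex I is the largest of the 5. Of its 37 tested genes 1 rose and 6 fell (2.70 and 16.2%, against 20.5 and 16.6% of all genes), and the median log2 fold change was -0.068. NDUFV3, an accessory subunit of the NADH-binding module, had levels of 44.2 and 41.2 (WT), 30.6 and 30.6 (KO1) and 30.3 and 29.8 CPM (KO2). All 4 PCGF6-KO libraries lay close together and below both WT libraries, with a log2 fold change of -0.49 (SE 0.072, adjusted p = 0.000787) with the quasi-likelihood test of edgeR, which also gave the other values for complex I. NDUFS4, an accessory subunit needed for a stable NADH-binding module and a gene known from Leigh syndrome, moved the other way. It had levels of 15.9 and 14.9 (WT), 18.5 and 19.8 (KO1) and 19.6 and 23.9 CPM (KO2), again with no overlap between the genotypes, and a log2 fold change of 0.41 (SE 0.12, adjusted p = 0.0305). Other genes that fell, taken up here for having passed the test, included NDUFA5 (-0.44), NDUFB4 (-0.44), NDUFS5 (-0.25) and NDUFB10 (-0.25). The most abundant of them per length, NDUFS5, had levels of 182 and 179 (WT), 153 and 141 (KO1) and 163 and 147 CPM (KO2), with both WT libraries above the other 4 (adjusted p = 0.0192 by edgeR).

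The core subunits of complex I bind NADH and carry its electrons to ubiquinone. NDUFV1, which binds NADH and FMN, had a log2 fold change of 0.20 (SE 0.074, adjusted p = 0.061) by edgeR, NDUFS1, the large iron-sulfur subunit, -0.11 (SE 0.062, adjusted p = 0.192), and NDUFS3 -0.08 (SE 0.093, adjusted p = 0.54). These 3 did not pass the test with both clones pooled. Set against WT clone by clone, however, NDUFV1 was called higher each time, by 0.19 for KO1 and 0.21 for KO2. The quasi-likelihood test put its adjusted p at 0.0335 for the former and 0.0206 for the latter. Every PCGF6-KO library lay above both WT libraries for NDUFV1. NDUFS1 and NDUFS3 passed in neither clone. NDUFA4, named for complex I but now assigned to complex IV, had levels of 80.2 and 78.5 (WT), 68.5 and 77.8 (KO1) and 79.8 and 76.8 CPM (KO2). Its genotypes overlapped, and the log2 fold change was -0.068 (SE 0.077, adjusted p = 0.525) by edgeR.

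In complex II, which feeds electrons from the tricarboxylic acid cycle, 0 of 4 tested genes rose and 2 fell (0 and 50.0%, against 20.5 and 16.6% of all genes). The 2 that passed the test as lower were the membrane anchors. The 2 catalytic subunits did not pass, but SDHA fell nearly as far as the anchor SDHC. SDHD had levels of 38.6 and 42.1 (WT), 30.7 and 35.2 (KO1) and 32.2 and 31.2 CPM (KO2), so that every PCGF6-KO library was below WT, with a log2 fold change of -0.32 (SE 0.086, adjusted p = 0.017) by edgeR. For SDHC the values were levels of 104 and 108 (WT), 88.1 and 97.0 (KO1) and 90.7 and 96.2 CPM (KO2), with a log2 fold change of -0.19 (SE 0.066, adjusted p = 0.0491) by edgeR, and this call was lost in 5 of the fits without 1 library and in 3 other alternatives. Without WT replicate 1 the log2 fold change of SDHD was -0.38, and without WT replicate 2 it was -0.26. The call of SDHD was lost in both of these fits. The flavoprotein SDHA had a log2 fold change of -0.16 (SE 0.061, adjusted p = 0.0652) by edgeR, with every PCGF6-KO library below WT. SDHB had one of 0.057 (SE 0.07, adjusted p = 0.566) in the same test. Of the counts on SDHA and its 3 pseudogene rows, 18.1% were on the pseudogenes. With pseudogene counts added, the median over complex II went from -0.18 to -0.13.

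Complex III held the largest increase of the respiratory chain. Of its 9 tested genes 1 rose and 1 fell (11.1% each, against 20.5 and 16.6% of all genes). UQCRH, the hinge protein that helps cytochrome c1 meet cytochrome c, had levels of 133 and 113 (WT), 186 and 163 (KO1) and 213 and 196 CPM (KO2). The libraries of the groups did not overlap, and clone 2 was above clone 1. The log2 fold change was 0.63 (SE 0.11, adjusted p = 0.00237) in PCGF6-KO against WT, 0.51 (SE 0.076, adjusted p = 3.74e-06) in clone 1 and 0.74 (SE 0.076, adjusted p = 6.02e-09) in clone 2, with the quasi-likelihood test of edgeR. UQCRHL, a near-identical copy of UQCRH with which it can share reads, had 100 and 86 (WT), 158 and 115 (KO1) and 163 and 146 counts (KO2). All PCGF6-KO libraries were above WT, and its log2 fold change of 0.53 (SE 0.19, adjusted p = 0.0578) did not pass. With the counts of both genes summed, an alternative added after the data were seen, the log2 fold change of UQCRH was 0.62.

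UQCRC2, a core protein on the matrix side of complex III, went the other way. It had levels of 129 and 123 (WT), 108 and 113 (KO1) and 94.9 and 91.8 CPM (KO2), which put WT highest and clone 2 lowest without overlap, with a log2 fold change of -0.31 (SE 0.092, adjusted p = 0.0273) by edgeR. Its partner UQCRC1 did not pass, with levels of 199 and 187 (WT), 197 and 182 (KO1) and 199 and 180.2 CPM (KO2), overlapping groups and a log2 fold change of -0.024 (SE 0.068, adjusted p = 0.807). The Rieske iron-sulfur protein UQCRFS1 had a log2 fold change of -0.09 (SE 0.088, adjusted p = 0.458), and the median over the 9 genes was -0.062.

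In complex IV, 1 of 12 tested genes rose and 4 fell (8.33 and 33.3%, against 20.5 and 16.6% of all genes), with a median log2 fold change of -0.042. COX6C, an accessory subunit, had levels of 36.5 and 40.0 (WT), 49.4 and 46.3 (KO1) and 54.3 and 49.5 CPM (KO2), with all PCGF6-KO libraries above WT and a log2 fold change of 0.38 (SE 0.088, adjusted p = 0.00859) by edgeR. COX7C, a small membrane subunit, had levels of 127 and 117 (WT), 83.0 and 84.6 (KO1) and 99.1 and 86.1 CPM (KO2), with all PCGF6-KO libraries below WT and a log2 fold change of -0.46 (SE 0.084, adjusted p = 0.00248). In both genes the clones lay on the same side of WT. COX8A, another small membrane subunit, had levels of 24.4 and 23.7 (WT), 18.0 and 16.4 (KO1) and 18.7 and 18.9 CPM (KO2) and a log2 fold change of -0.42 (SE 0.10, adjusted p = 0.00825) by edgeR. COX5A fell as well, with levels of 101 and 94.1 (WT), 86.0 and 76.6 (KO1) and 81.7 and 79.7 CPM (KO2) and a log2 fold change of -0.27 (SE 0.07, adjusted p = 0.0158). COX7B passed by a small margin. It had levels of 41.6 and 49.9 (WT), 38.1 and 38.3 (KO1) and 38.3 and 31.3 CPM (KO2), where WT replicate 1 was nearer to the clones than to WT replicate 2, and its log2 fold change was -0.33 (SE 0.11, adjusted p = 0.0466). Each of the 6 fits without a library lost the call, and without WT replicate 2 its log2 fold change was -0.19. COX4I1, the regulatory subunit that binds ATP, had overlapping groups with levels of 163 and 173 (WT), 184 and 164 (KO1) and 197 and 178 CPM (KO2) and a log2 fold change of 0.11 (SE 0.08, adjusted p = 0.323).

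ATP synthase had 1 gene higher and 4 lower of 19 tested (5.26 and 21.1%, against 20.5 and 16.6% of all genes), with a median log2 fold change of -0.077. Of the catalytic head, only ATP5F1B stood far above the rest of complex V per length, at 324 RPKM in WT. ATP5F1A was at 49.2 RPKM, beside ATP5F1C at 56.4 and ATP5MF at 45.3. ATP5F1A, the alpha subunit, had levels of 534 and 539 (WT), 421 and 430.3 (KO1) and 453 and 432 CPM (KO2), and ATP5F1B, the beta subunit, had levels of 756 and 748 (WT), 659.8 and 649 (KO1) and 645 and 636 CPM (KO2). In both, the WT libraries were close together and above the other 4. The log2 fold changes were -0.31 (SE 0.056, adjusted p = 0.00259) and -0.22 (SE 0.052, adjusted p = 0.0112) by edgeR. ATP5F1C, the gamma subunit, did not pass, at 0.12 (SE 0.057, adjusted p = 0.143 by edgeR). ATP5IF1, the inhibitor that blocks reverse rotation, had levels of 85.2 and 81.4 (WT), 69.2 and 61.4 (KO1) and 71.4 and 65.7 CPM (KO2) and fell with them at -0.32 (SE 0.077, adjusted p = 0.0111).

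The c-ring is built of 1 protein made from 3 genes, ATP5MC1, ATP5MC2 and ATP5MC3, which differ in their import sequences. ATP5MC2 had levels of 112 and 117 (WT), 89.8 and 81.5 (KO1) and 93.3 and 91.0 CPM (KO2), with all PCGF6-KO libraries below WT and a log2 fold change of -0.37 (SE 0.071, adjusted p = 0.00358) by edgeR. ATP5MC3 and ATP5MC1 did not pass, at -0.16 (SE 0.061, adjusted p = 0.071) and -0.14 (SE 0.10, adjusted p = 0.279). Of the 3 genes together, per length, ATP5MC2 made 47.6 and 49.1% (WT), 43.9 and 42.6% (KO1) and 45.2 and 47.0% (KO2). This order rests on the deposited length of ATP5MC3, 6780 bases. With the 3883 exon bases of GENCODE 44, ATP5MC3 was the largest in every library, with 43.1 to 48.7%, and ATP5MC2 made 34.2 to 40.5%. ATP5PD, a subunit of the stalk that holds the head, was the gene that rose, with levels of 73.5 and 66.8 (WT), 78.9 and 88.0 (KO1) and 89.95 and 87.3 CPM (KO2), no overlap and a log2 fold change of 0.29 (SE 0.078, adjusted p = 0.017) by edgeR. ATP5S, listed under complex V by its older symbol, is DMAC2L today and had a log2 fold change of -0.30 (SE 0.12, adjusted p = 0.0802).

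**Figure D4:**
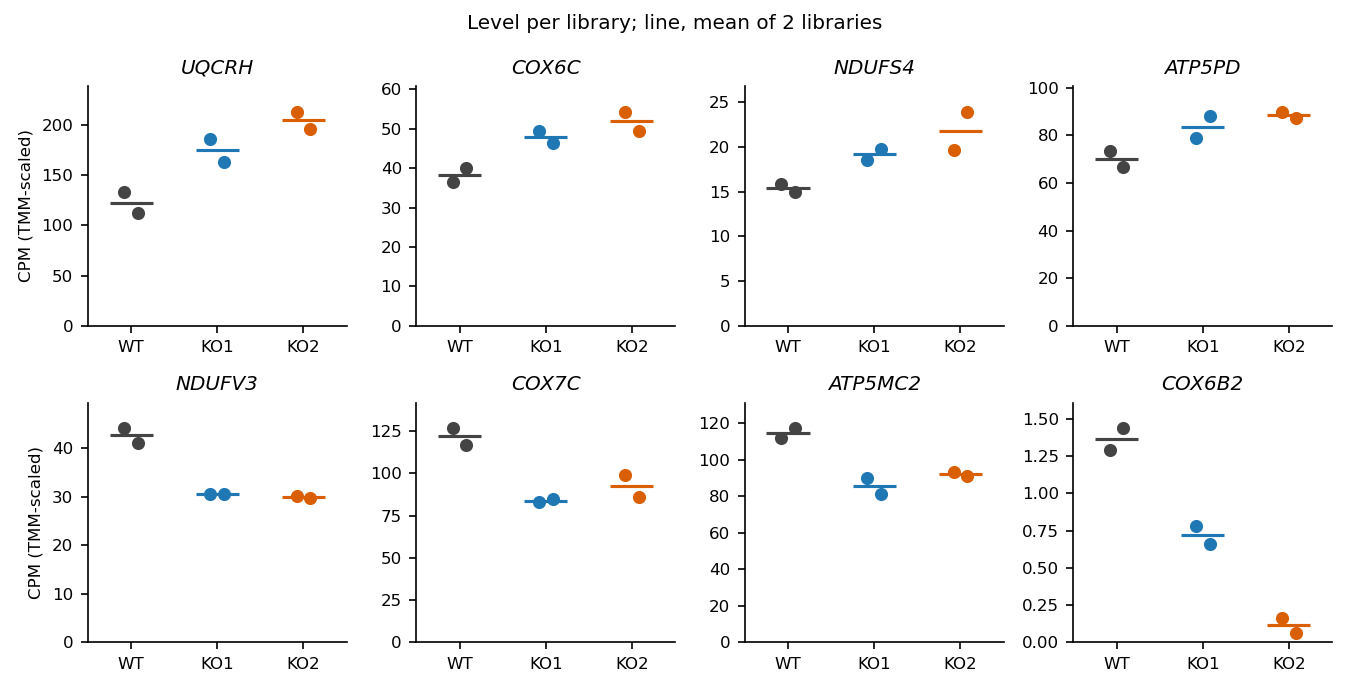
TMM-scaled CPM of 8 respiratory chain genes in each library of WT, KO1 and KO2, with a line at the mean of the 2 libraries of a group and all axes from 0. UQCRH, COX6C, NDUFS4 and ATP5PD lie higher in all 4 PCGF6-KO libraries, the other 4 genes lie lower, and COX6B2 is near 0 in KO2.

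Several subunits have isoforms that are made in particular tissues, such as heart and muscle, lung or testis. Here the widely expressed isoform dominated every pair. The muscle isoform COX6A2 and the testis isoforms COX7B2 and COX8C were at 0 in all 6 libraries. A count of 0 does not exclude a low level, with an expected count of up to about 3 in a library. COX4I2, of lung, had at most 2 counts in a library. Per length, the muscle isoform COX7A1 made up 1.45 and 0.575% (WT), 2.38 and 1.64% (KO1) and 1.28 and 1.42% (KO2) of the pair with COX7A2, and NDUFA4L2, known as a hypoxia-induced gene, made up 0.290 to 1.06% of the pair with NDUFA4. NDUFA4L2, COX4I2, COX7A1 and ATP5MGL, a copy of ATP5MG, did not pass the filter on low counts, and neither did the 3 genes at 0. Among the partners, COX6A1 had a log2 fold change of 0.24 (SE 0.10, adjusted p = 0.0886), COX6B1 one of -0.016 (SE 0.08, adjusted p = 0.897) and COX7A2 one of -0.021 (SE 0.079, adjusted p = 0.865) by edgeR, so that none of these 3 passed.

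COX6B2, the testis isoform of COX6B1, was the only tissue-restricted isoform here to pass the filter on low counts. It had 21 and 24 (WT), 15 and 12 (KO1) and 3 and 1 counts (KO2). The 3 groups did not overlap, with clone 2 lowest. The ratio of scaled counts was 0.0857 in clone 2 over WT (95% exact interval of the counts 0.0224 to 0.235) and 0.530 in clone 1 over WT (0.316 to 0.873), intervals that cover counting error only. With the quasi-likelihood test of edgeR, the log2 fold change was -3.47 (SE 0.60, adjusted p = 2.3e-05) in clone 2, -0.91 (SE 0.41, adjusted p = 0.0711) in clone 1 and -1.65 (SE 0.63, adjusted p = 0.0673) for both clones together, so that only clone 2 passed in these fits. Both clones together passed without the filter on low counts (adjusted p = 0.0249), with the mean of the clones (-2.19, adjusted p = 0.000105) and without KO1 replicate 1 (adjusted p = 0.0299). COX6B2 lies on chromosome 19 from 55349306 to 55354719 on the minus strand (GRCh38), and 29.1% of its exon bases belong to another gene as well. As a part of the pair with COX6B1 it was 0.628 and 0.758% (WT), 0.405 and 0.361% (KO1) and 0.0797 and 0.0322% (KO2).

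The clones were also compared with each other. They differed in 4 members, with 2 higher and 2 lower in clone 2, where 19.5% of all genes tested did (10.7% higher and 8.82% lower). With the cut-off on fold change COX6B2 alone was left, against 7.87% of all genes. The log2 difference of clone 2 minus clone 1 was 0.23 (SE 0.074, adjusted p = 0.0295) for UQCRH, 0.20 (SE 0.064, adjusted p = 0.0329) for UQCRB, -0.24 (SE 0.065, adjusted p = 0.00888) for UQCRC2 and -2.56 (SE 0.66, adjusted p = 0.00677) for COX6B2 with the quasi-likelihood test of edgeR. UQCRB, the ubiquinone-binding protein of complex III, had levels of 131 and 131 (WT), 129 and 121 (KO1) and 149 and 138 CPM (KO2). Clone 2 was above clone 1 and WT lay between, and in PCGF6-KO against WT its log2 fold change was 0.036 (SE 0.085, adjusted p = 0.773). The 3 genes other than COX6B2 belong to complex III. The calls of UQCRH and UQCRB were lost with DESeq2, at adjusted p = 0.0688 and 0.0655, and DESeq2 gave COX6B2 no adjusted p, so that UQCRC2 alone passed there. Without KO2 replicate 2 the calls of UQCRC2 (adjusted p = 0.0894) and COX6B2 (adjusted p = 0.0802) were lost by edgeR, and over all alternatives 1 to 8 members differed between the clones. An absolute log2 difference under 0.3 was found for 76 of 81 members (93.8%) and for 66.6% of all genes.

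The subunits encoded in mitochondrial DNA could not be set beside the nuclear ones. All 13, from MT-ND1 to MT-ATP8, were listed at 0 in every library. Every cell uses these genes, so no more can be said than that they are listed at 0. Of the subunits whose names fall outside the rule, NDUFAB1, the mitochondrial acyl carrier protein and a part of complex I, had levels of 37.0 and 36.6 (WT), 51.2 and 46.1 (KO1) and 51.1 and 49.9 CPM (KO2). It rose with no overlap, by a log2 fold change of 0.43 (SE 0.077, adjusted p = 0.00225) by edgeR. CYC1, cytochrome c1 of complex III, fell at -0.29 (SE 0.08, adjusted p = 0.018), and CYCS, cytochrome c itself, did not pass at -0.17 (SE 0.078, adjusted p = 0.131).

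Assembly factors, which put the complexes together without being part of them, were read from lists chosen by function. Of 20 factors of complex I, 0 rose and 3 fell in PCGF6-KO against WT (15.0% fell, against 16.6% of all genes), with a median log2 fold change of -0.092. They were ECSIT (-0.38, adjusted p = 0.0158), DMAC1 (-0.32, 0.0135) and COA1 (-0.24, 0.0117) by edgeR. Of 35 factors of complexes II to V, 3 rose and 6 fell (8.57 and 17.1%, against 20.5 and 16.6% of all genes), with a median of -0.082. BCS1L, the ATPase that places the Rieske protein into complex III, had levels of 13.3 and 13.5 (WT), 23.5 and 21.7 (KO1) and 22.2 and 20.3 CPM (KO2), and so rose in all 4 libraries by 0.71 (SE 0.10, adjusted p = 0.000658). SCO2 and SCO1, the copper chaperones of complex IV, moved apart, with log2 fold changes of 0.77 (SE 0.23, adjusted p = 0.0296) and -0.40 (SE 0.061, adjusted p = 0.000964) by edgeR. The third that rose was CMC2 at 0.35 (adjusted p = 0.0126 by edgeR). SDHAF4, which acts on newly made SDHA, had 40 and 54 (WT), 25 and 20 (KO1) and 19 and 20 counts (KO2). WT was above every other library, and the log2 fold change was -1.27 (SE 0.24, adjusted p = 0.00342) by edgeR, the largest decrease on this list. Next among the genes that passed was UQCC3 at -0.53 (SE 0.18, adjusted p = 0.0497) by edgeR. The call of UQCC3 was lost in 5 of the 6 fits without 1 library and in 5 other alternatives, and that of SCO2 in 4 and 2, DESeq2 among them for both.

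Among 20 regulators of mitochondrial biogenesis 3 rose and 3 fell (15.0% each, against 20.5 and 16.6% of all genes), with a median log2 fold change of -0.10. PPARGC1A, which encodes the coactivator PGC-1alpha, had 18 and 30 (WT), 55 and 61 (KO1) and 79 and 56 counts (KO2). It rose by 1.27 (SE 0.29, adjusted p = 0.00798) by edgeR from a low level, while its relative PPARGC1B fell at -0.51 (SE 0.13, adjusted p = 0.0126). MYC had levels of 139 and 144 (WT), 236 and 217 (KO1) and 248 and 265 CPM (KO2), with no overlap between WT and the clones and a log2 fold change of 0.78 (SE 0.085, adjusted p = 0.000134). MTERF1, a mitochondrial transcription terminator, rose by 0.31 (SE 0.11, adjusted p = 0.0454) by edgeR. The orphan nuclear receptor ESRRB fell at -1.24 (SE 0.36, adjusted p = 0.0263) and GABPA, the DNA-binding GABP subunit, at -0.27 (SE 0.077, adjusted p = 0.024). The call of MTERF1 was lost in 5 of the 6 fits without 1 library and in 4 other alternatives, that of ESRRB without either WT library and with DESeq2 (adjusted p = 0.0589), and that of GABPA in 3 fits without 1 library. NRF1 did not pass, at 0.032 (SE 0.11, adjusted p = 0.852), nor did TFAM, which packs mitochondrial DNA, at -0.15 (SE 0.074, adjusted p = 0.15).

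The tricarboxylic acid cycle feeds complexes I and II, and 3 of 14 of its enzyme genes rose and 1 fell (21.4 and 7.14%, against 20.5 and 16.6% of all genes), with a median log2 fold change of -0.028. All but 1 of these encode subunits of succinyl-CoA ligase. SUCLA2, its ADP-forming beta subunit, had levels of 45.7 and 43.3 (WT), 101 and 102 (KO1) and 92.3 and 102 CPM (KO2). SUCLG2, the GDP-forming beta subunit, had levels of 56.1 and 58.2 (WT), 23.1 and 23.6 (KO1) and 20.6 and 20.8 CPM (KO2). Neither gene overlapped between WT and the clones, and they went opposite ways, with log2 fold changes of 1.15 (SE 0.074, adjusted p = 5.42e-06) for SUCLA2 and -1.38 (SE 0.084, adjusted p = 4.26e-06) for SUCLG2 by edgeR. SUCLG1, the alpha subunit both forms share, rose by 0.72 (SE 0.15, adjusted p = 0.00525), and IDH3A, of NAD-dependent isocitrate dehydrogenase, by 0.46 (SE 0.10, adjusted p = 0.00773). These changes of the beta subunits were larger than that of any of the 81 respiratory chain genes except COX6B2. OGDH, which acts before this enzyme in the cycle, did not pass, at -0.14 (SE 0.056, adjusted p = 0.0886) by edgeR.

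**Figure D5:**
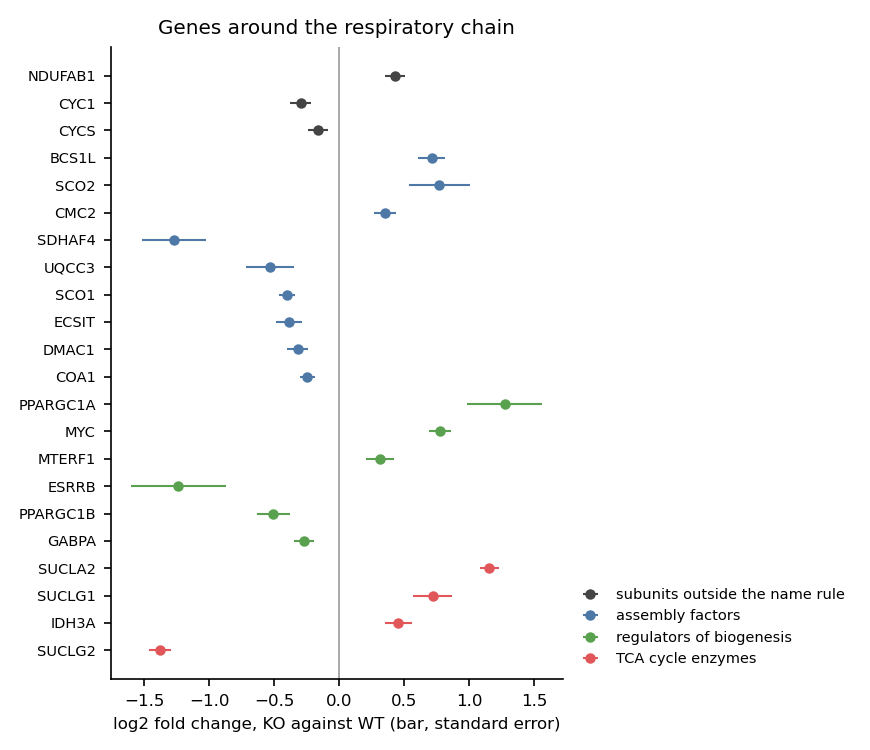
Log2 fold change in PCGF6-KO (n = 4) against WT (n = 2), with standard errors, for genes around the respiratory chain. Except CYCS, all genes shown passed edgeR's test and are the up to 3 largest increases and decreases of their list. SUCLA2 at 1.15 and SUCLG2 at -1.38 lie at opposite sides.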

How the data were processed

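RNA-seq libraries of WT PGP1 cells, KO1 and KO2 (2 each) were used. According to the study's methods, the authors trimmed reads with Trim Galore (0.6.2), mapped them to GRCh38 with HISAT2 (2.1.0) and ran featureCounts, and they deposited the raw counts with gene lengths. Strand setting, annotation release and treatment of multi-mapped reads are not given in the sources used here. ChIP-seq was left out, and the values of 1 member are not reported here. The members, the gene lists and the rule for named genes were chosen with earlier results of these data known.

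The counts were filtered with filterByExpr of edgeR (4.0.16, limma 3.58.1, R 4.3.3) on genotype, which left 17672 genes, and scaled with TMM. The main test (glmQLFit, glmQLFTest) set 4 PCGF6-KO against 2 WT libraries, and a second model with KO1, KO2 and WT as groups gave the comparisons by clone. A gene passed at a Benjamini-Hochberg adjusted p under 0.05 over all genes tested. The cut-off in the study's methods also asks for an absolute log2 fold change over 0.6. Library totals were 15877396 to 18918609. Replicates differed by more than counting error, with a chi-square per degree of freedom of 2.40 (WT), 4.50 (KO1) and 3.20 (KO2), so none was a duplicate. The common biological coefficient of variation was 0.120. RPKM uses the deposited lengths.

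Named by rule were members past the test and cut-off in both clones, the most abundant, most raised and most lowered of each complex, isoform pairs, c-subunit genes, members that differed between clones and those at 0. Of the other lists, up to 3 increases and 3 decreases that passed were named. Remaining genes were named after their values were seen. The settings tried were DESeq2 (1.42.0), normalization by RLE or upper quartile, omission of the filter, at least 10 counts in every library, the cut-off, a gene length offset, pseudogene counts added, the mean of the clones, the replicate block and omission of each library. The sum of UQCRH and UQCRHL counts and the exon lengths of GENCODE 44 were later additions, chosen once the data had been seen. The code was tested on simulated data. Promoters are the first RefSeq window listed for a symbol (GRCh38.p14), and positions and exons are from GENCODE 44, which matched all 88 members. Python 3.11.15 with pandas 2.3.3 and matplotlib 3.10.9 was used for these steps.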

Additional observations from a re-analysis of the deposited data

Results flagged for a closer look

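COX7B had 1 library far from the other 3 in PCGF6-KO. Its level was between 38.1 and 38.3 CPM in both clone 1 libraries and in clone 2 replicate 1, and 31.3 CPM in clone 2 replicate 2. The gap made up 0.962 of the range of the 4 libraries, over Dixon's critical value for 4 samples. Chance flags about 1 in 20 such groups, and 33 groups of 4 were examined.

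The response of 4 genes differed between the clones in the quasi-likelihood test of KO2 against KO1 with edgeR. The log2 difference of clone 2 minus clone 1 was 0.229 for UQCRH, -0.243 for UQCRC2, -2.56 for COX6B2 and 0.196 for UQCRB. UQCRH was above WT and UQCRC2 below WT in both clones, each further in clone 2. COX6B2 rests on 27 counts in clone 1 and 4 in clone 2. UQCRB lay on either side of WT, with log2 fold changes of -0.065 in clone 1 and 0.13 in clone 2, neither of which passed.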

How the results depend on the processing

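The 21 members past the test in PCGF6-KO against WT kept their direction in all 15 alternative fits. DESeq2 kept 20 of them, no filter 20, at least 10 counts in every library 19 and the replicate block 19. With the mean of the clones 33 members passed (40.7%, against 52.2% of all genes), and with the cut-off on fold change 1 in PCGF6-KO, 0 in clone 1, 3 in clone 2 and 1 between the clones. Leaving out a library gave 7 to 23 members in PCGF6-KO, 16 to 24 in clone 1, 21 to 36 in clone 2 and 2 to 7 between the clones, with the lowest counts in PCGF6-KO without WT replicate 1 (7) and WT replicate 2 (8). Between the clones 1 passed with DESeq2 and 2 with upper-quartile normalization. The cause was not tested. The labels do not say that a replicate number marks a shared day or culture, so no pairing was assumed. Deviations of same-numbered libraries correlated over 15104 genes at Pearson's r of 0.024, 0.040 and 0.131 and Spearman's rho of 0.112, 0.106 and 0.224, which leaves the pairing unsettled. With the replicate block 21 members passed in PCGF6-KO, 34 in place of 24 in clone 1 (42.0%, against 50.4% of all genes), 38 in place of 31 in clone 2 (46.9%, against 54.9%) and 8 between the clones (9.88%, against 25.9%), and the calls of UQCRC2 (adjusted p = 0.0508) and COX7B (adjusted p = 0.0773) in PCGF6-KO were lost.

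Medians by complex moved by more than the spread of the replicates in a few settings. With pseudogene counts added, complex II was at -0.13 in PCGF6-KO and -0.12 in clone 1. With at least 10 counts in every library, complex IV was at -0.00094 in PCGF6-KO and 0.027 in clone 2, and complex I at -0.043 in clone 1. With upper-quartile normalization, which put the median of all genes at -0.03, clone 2 had -0.14 in complex I, -0.22 in complex II and -0.057 in complex IV. With 1 library left out, the medians of complexes I to V ranged from -0.087 to -0.033, -0.19 to -0.16, -0.10 to 0.019, -0.072 to -0.016 and -0.13 to 0.00022 in PCGF6-KO, from -0.098 to -0.034, -0.19 to -0.15, -0.11 to -0.044, -0.13 to -0.082 and -0.14 to -0.037 in clone 1, and from -0.084 to 0.012, -0.18 to -0.17, -0.088 to 0.045, -0.051 to 0.020 and -0.22 to 0.019 in clone 2. Genes near 0 changed sign: COX6B1 to 0.0039 with at least 10 counts, and with 1 library left out COX6B1 ranged from -0.071 to 0.041, COX7A2 from -0.044 to 0.014 and UQCRB from -0.0093 to 0.093. Of the genes outside the members, the calls of CYC1, ECSIT, DMAC1, COA1, CMC2 and PPARGC1B were lost without either WT library, those of PPARGC1A, SUCLG1 and IDH3A without WT replicate 1 and that of SDHAF4 without WT replicate 2. Those of NDUFAB1, BCS1L, SCO1, MYC, SUCLA2 and SUCLG2 were kept in all fits.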

Other observations

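The 88 genes lie on 22 chromosomes, with 12 on chromosome 19 and 3 on chromosome X. The tested members are shorter than other genes, with a median length of 2615 bases against 4536 for all genes tested, and more abundant, with a median of 5.31 against 3.91 on the log2 CPM scale. Over all tested genes, the median log2 fold change in PCGF6-KO against WT was 0.047 in the shortest of 5 length classes and -0.014 in the longest.

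Some genes around the respiratory chain differed between the clones. LYRM7, a factor for the Rieske protein of complex III, had 320 and 367 (WT), 416 and 370 (KO1) and 251 and 193 counts (KO2). With the quasi-likelihood test of edgeR, KO1 differed from WT by a log2 fold change of 0.016 (adjusted p = 0.92) and KO2 by -0.68 (adjusted p = 1.73e-05), and KO2 from KO1 by -0.70 (adjusted p = 5.67e-05). POLG2, the accessory subunit of the mitochondrial DNA polymerase, had 534 and 514 (WT), 251 and 265 (KO1) and 450 and 415 counts (KO2). The log2 fold change from WT was -1.20 for KO1 (adjusted p = 2.43e-10) and -0.33 for KO2 (adjusted p = 0.00605), and KO2 differed from KO1 by 0.87 (adjusted p = 7.28e-07). Both genes were picked out after their values were seen.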
